A study of Mus musculus with 8 samples.

Results

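The collagen chains of the mouse kidney were examined at day 3 after ischaemia-reperfusion injury (IRI), in which the blood supply of the kidney is cut off and then restored. The members were chosen by their gene symbols: every row of the deposited gene table whose Ensembl identifier belonged to a protein-coding gene named as a collagen chain. Of 34450 rows, 45 fitted this pattern. One of them, Col4a3bp, encodes a ceramide transfer protein and no collagen, and was set apart, which left 44 chains. The HxIRI group held 4 kidney libraries (1 to 4) from 8-week-old C57BL/6J mice exposed to hypoxia before IRI. The IRI group held 4 kidney libraries (5 to 8) from mice of the same strain and age kept in normoxia ahead of it. The question is how low oxygen ahead of the injury alters the kidney that suffers it. All 8 libraries came from injured kidney, uninjured tissue was not analysed here, and the labels do not state how long or how severe the hypoxia was. Below, a kidney with a number stands for the library of that number.

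Collagens are matrix proteins whose chains wind around each other into long helices. Fibrillar collagens, chiefly types I, III and V in the kidney, form the cables of the interstitium and are made by fibroblasts and pericytes, more so in fibrosis. Type IV collagen forms the sheet-like network of basement membranes. The chains of Col4a1 and Col4a2 occur in nearly all basement membranes, whereas those of Col4a3, Col4a4 and Col4a5 form the network of the mature glomerular basement membrane, where podocytes make them, and are also found along some tubules. Loss of this second network causes Alport syndrome. The remaining classes link fibrils, membranes and cells. Type VI makes beaded filaments, the fibril-associated collagens (FACIT) coat fibrils, the multiplexins XV and XVIII sit at basement membranes, and the transmembrane collagens sit in the cell surface.

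The type IV genes lie in head-to-head pairs, so the stretch between their starts is shown for the pair that was higher and the pair that was lower on average in the HxIRI kidneys. In GENCODE M21 (GRCm38), Col4a4 starts on the minus strand of chromosome 1 at 82586849 and Col4a3 on the plus strand at 82586921, 72 bases away. Col4a1 starts on the minus strand of chromosome 8 at 11312826 and Col4a2 on the plus strand at 11312805, so that their first exons overlap. The labels do not state whether the authors' counting used strand. The pair Col4a6 and Col4a5 on chromosome X has starts 1309 bases apart. Both windows below are RefSeq sequence (GRCm38.p6), 250 bases before to 50 bases after the start of the minus-strand gene. They are chr1:82586800-82587099 and chr8:11312777-11313076, minus strand, 5′ to 3′, with the bases from one annotated start to the other in capitals (73 and 22 bases).
Col4a4: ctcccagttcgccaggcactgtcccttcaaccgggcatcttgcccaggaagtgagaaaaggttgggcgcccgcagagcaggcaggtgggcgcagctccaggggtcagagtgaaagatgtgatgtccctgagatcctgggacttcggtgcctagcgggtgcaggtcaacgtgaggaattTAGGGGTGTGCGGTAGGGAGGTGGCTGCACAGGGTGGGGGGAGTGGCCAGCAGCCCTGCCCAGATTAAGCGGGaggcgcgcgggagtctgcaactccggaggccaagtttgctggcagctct
Col4a1: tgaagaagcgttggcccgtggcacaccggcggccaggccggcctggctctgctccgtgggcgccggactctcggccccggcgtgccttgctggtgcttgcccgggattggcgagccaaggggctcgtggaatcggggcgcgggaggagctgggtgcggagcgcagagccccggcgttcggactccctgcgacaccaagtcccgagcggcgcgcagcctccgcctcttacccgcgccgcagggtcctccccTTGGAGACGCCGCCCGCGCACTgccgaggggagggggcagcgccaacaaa

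The same windows of 2 fibrillar chains, Col1a2 (chr6:4505368-4505667, plus strand) and Col3a1 (chr1:45311288-45311587, plus strand), are shown because these genes had some of the largest differences between the groups. Capitals mark matches on either strand to GGGCGG (a GC box), to CCAAT (which reads ATTGG on the other strand) or to TATAAA, the core of the TATA box. No matches to different motifs overlapped in these windows.
Col1a2: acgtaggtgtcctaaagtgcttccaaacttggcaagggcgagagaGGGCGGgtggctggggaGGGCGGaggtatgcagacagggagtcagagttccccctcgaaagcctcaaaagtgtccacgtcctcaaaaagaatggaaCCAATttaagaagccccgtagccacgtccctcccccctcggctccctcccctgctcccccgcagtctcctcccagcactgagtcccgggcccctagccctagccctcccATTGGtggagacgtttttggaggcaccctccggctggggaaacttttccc
Col3a1: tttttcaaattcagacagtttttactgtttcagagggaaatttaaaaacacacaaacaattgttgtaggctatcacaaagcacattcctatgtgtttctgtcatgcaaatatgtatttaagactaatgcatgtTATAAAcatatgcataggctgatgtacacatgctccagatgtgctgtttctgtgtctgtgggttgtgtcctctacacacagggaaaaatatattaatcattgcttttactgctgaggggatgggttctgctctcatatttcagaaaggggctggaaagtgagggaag

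Col1a2 held 2 GC boxes and 2 CCAAT boxes in this window, and Col3a1 held 1 TATA box. Windows were available for 35 chains (38 windows). GGGCGG was found in 23 of these 38, CCAAT in 13 and TATAAA in 5, against 35.7%, 37.4% and 13.6% of all 32851 RefSeq windows of the same length. The Col4a4 window matched none of the motifs, and the Col4a1 window matched GGGCGG and CCAAT once each. G and C made up 74.0% of the Col4a1 window, 63.3% of the Col4a4 window, 61.0% of the Col1a2 window and 37.7% of the Col3a1 window, with a median of 52.7% over all windows. A match describes letters in a window and shows neither binding nor a working promoter element.

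The libraries differed in ways that touch the chains. Depth, approximated from the spacing of low FPKM values, was 8530000 to 13980000 fragments in HxIRI libraries and 8940000 to 14900000 in IRI libraries. Ribosomal RNA, nuclear and mitochondrial counted together, took 21.5% to 67.4% of the estimated fragments in HxIRI libraries. In IRI libraries it took 13.5% to 72.5%. IRI library 5 stood apart: its Spearman correlation with each of the other libraries averaged 0.633, where the other 7 averaged 0.767 to 0.832. There the longest 20% of genes lay 0.69 below the mean over libraries on the log2 scale (median), and the shortest 20% lay 0.37 above it. The tested chains are long, with a median exon length of 7833 bases, against 3654 bases over all tested genes. HxIRI libraries 1 and 2 lay close together (Spearman 0.924), as did 3 and 4 (0.921), against 0.833 to 0.853 across these pairs. Between HxIRI and IRI libraries it was 0.561 to 0.867, the highest for HxIRI library 1 with IRI library 6. The labels do not say that the libraries came from separate animals, so p-values measure the spread between libraries, which may be technical. Kidney tubule markers, among them Umod and Slc34a1, were above 0 in all 8 libraries.

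Expression was given by the authors as FPKM, fragments scaled to transcript length and library size, so levels of different chains are per length. Trends with length that remain within a library, as in IRI library 5, limit comparisons between chains. Of the 44 chains, 21 averaged 0.5 FPKM or more over the 8 libraries and entered the test, and 23 did not. The tested chains were 7 of 11 fibrillar chains, 5 of 6 type IV, 3 of 6 type VI, 1 of 3 short-chain network chains (types VIII and X), 3 of 9 FACIT and both multiplexins. Col7a1 (anchoring fibrils), the 4 transmembrane chains and Col26a1 and Col28a1 fell below the filter. Only 1 tested chain, Col12a1, owed its place to one group, with a mean of 0.408 FPKM in HxIRI kidneys and 1.46 FPKM in IRI kidneys. The order of mean levels was not the same in both groups. In HxIRI kidneys Col4a1 (25.6 FPKM), Col4a2 (21.5), Col4a3 (18.9), Col18a1 (17.5) and Col4a4 (16.9) led, and Col1a1 followed at 7.42 FPKM. In IRI kidneys Col4a1 (56.9 FPKM), Col4a2 (51.4), Col1a1 (46.8), Col18a1 (37.5) and Col3a1 (36.1) led, with Col4a4 at 6.27 FPKM and Col4a3 at 5.81 FPKM. Neighbours among the 5 leading chains of a group overlapped in their range over its libraries, while in HxIRI kidneys the ranges of Col4a4 and Col1a1 did not.

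**Figure D1:**
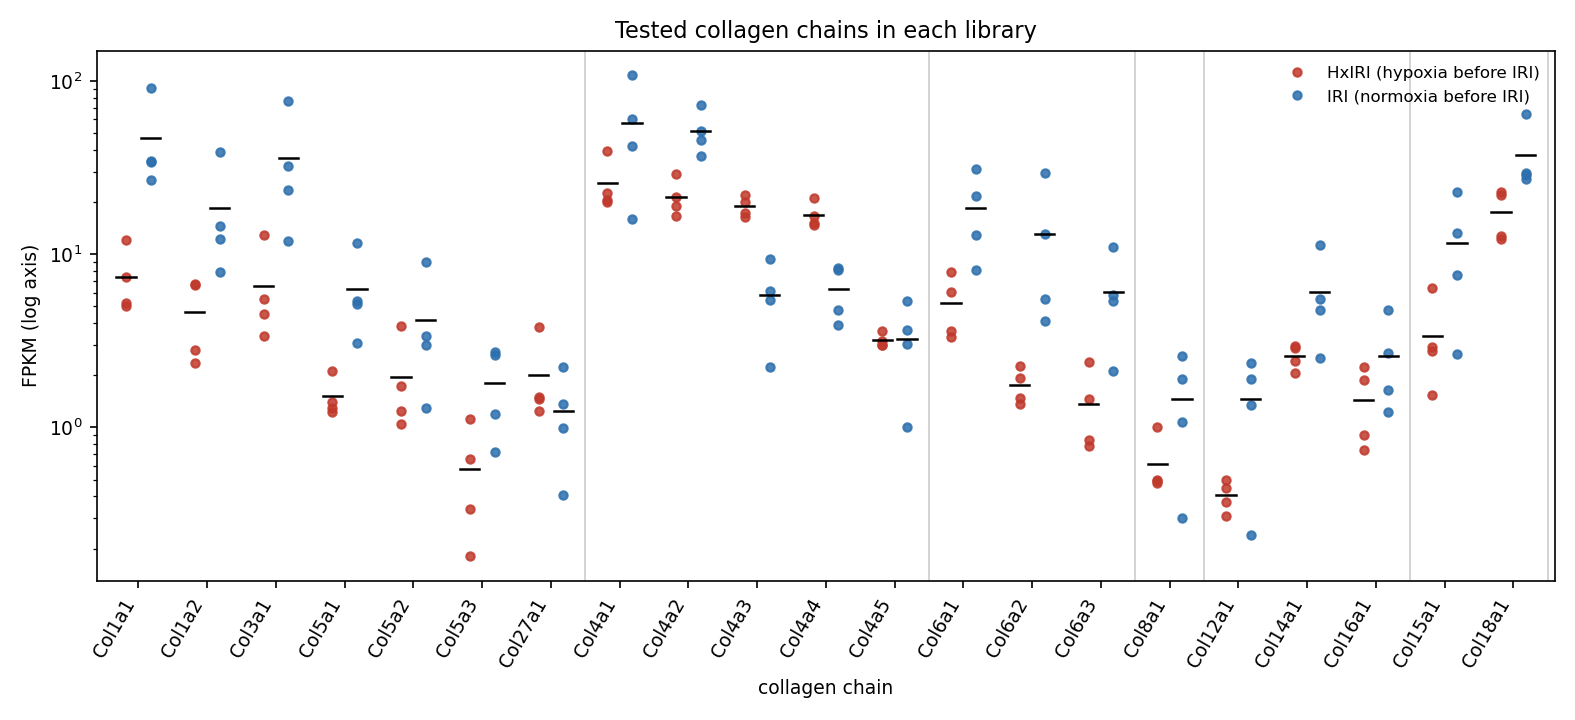
FPKM of the 21 tested chains in each library (log axis), HxIRI kidneys in red on the left and IRI kidneys in blue on the right of each chain, with a bar at the group mean; grey lines separate the classes. Col4a3 and Col4a4 are the chains whose 4 HxIRI values all lie above the IRI values, while for Col1a1, with 5 to 12.05 FPKM in HxIRI kidneys and 26.80 to 91.53 FPKM in IRI kidneys, they all lie below.

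Most chains were lower in HxIRI kidneys on average, and 2 basement membrane chains were higher, but no chain passed the test on the values as deposited. Each difference below is a log2 change of (FPKM + 0.5), HxIRI minus IRI, which understates the change of low chains. A chain passed when limma, fitted over all 14444 tested genes, gave a Benjamini-Hochberg adjusted p under 0.05. By this test 0 of 21 chains were higher and 0 were lower, where 0.305% of all tested genes were higher and 0.602% were lower. At an unadjusted limma p under 0.05, 2 chains were higher (2.52% of all tested genes) and 10 were lower (6.84%), 9 of them without counting Col12a1. The groups did not overlap for 2 higher chains, Col4a3 and Col4a4, and for 7 lower ones, Col1a1, Col1a2, Col5a1, Col4a2, Col6a1, Col6a2 and Col18a1 (1.86% and 3.06% of all tested genes). The log2 change was below 0 in 17 of 21 chains with a median of -1.03, against 61.0% of all tested genes with a median of -0.14.

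After scaling that makes the libraries more alike, some chains passed. TMM scaling moved the median of all tested genes to 0.02, and with it 5 chains fell (Col1a1, Col1a2, Col3a1, Col5a1 and Col6a1) and 1 rose (Col4a4), against 1.32% and 1.22% of all tested genes. When the trend of each library with exon length was removed instead, 6 chains fell (the same 5 and Col6a3) and 2 rose (Col4a3 and Col4a4), against 1.74% and 1.38% of all tested genes. With TMM scaling and without IRI library 5, 11 chains fell and 2 rose, against 5.29% and 5.77% of 14414 tested genes. With TMM scaling and without IRI library 7, 0 chains passed, where 0.064% of all tested genes were higher and 0.0355% were lower. Likewise 0 passed when HxIRI libraries 1 and 2, and 3 and 4, were averaged into pairs after TMM scaling. There 0.00692% of all tested genes were higher and 0% were lower. Almost no gene passed in these settings, so these counts say little about the chains. The median change of the 21 chains was -0.84 with TMM scaling and -0.97 with the length trend removed, and 17 were below 0 in each.

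**Figure D2:**
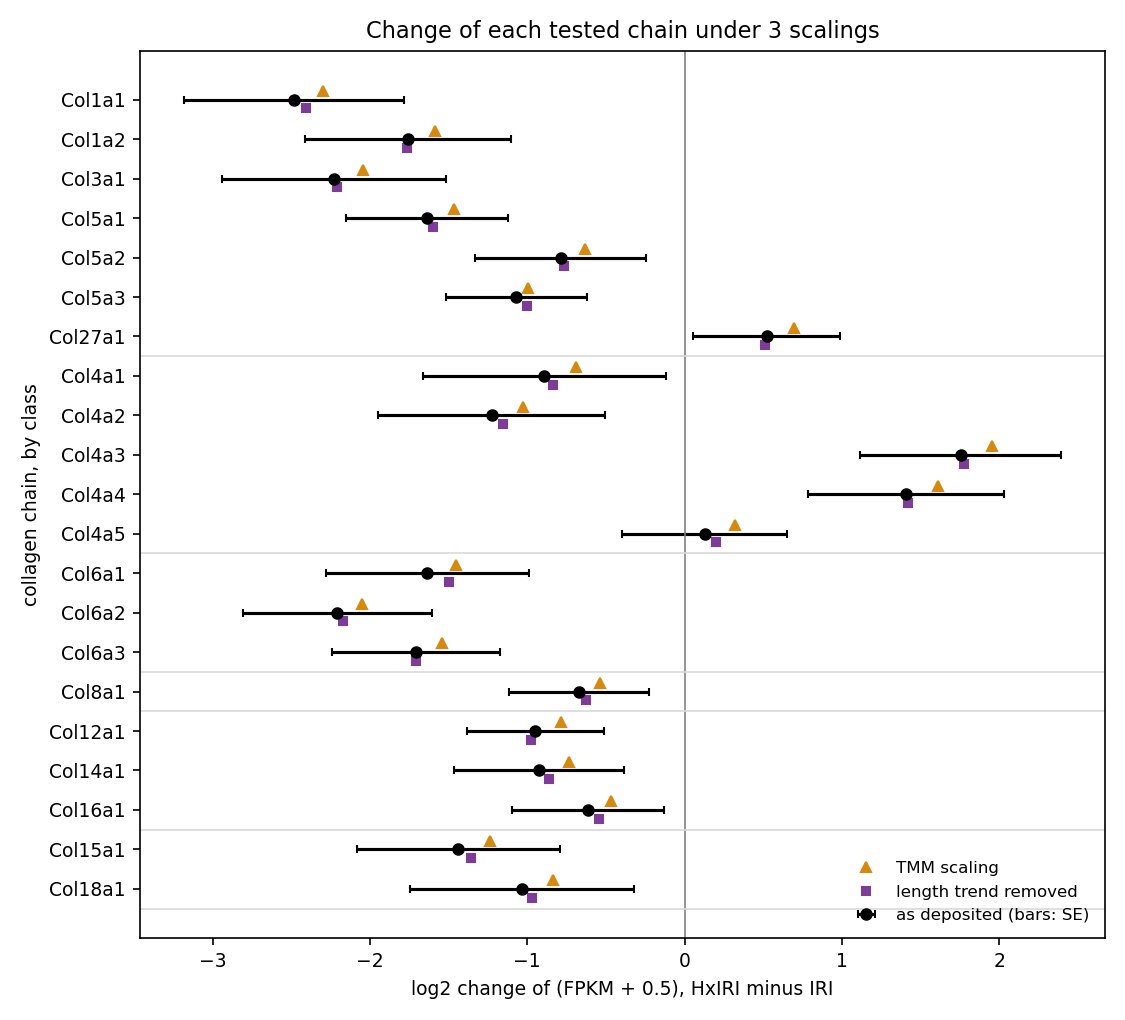
Log2 change of (FPKM + 0.5), HxIRI minus IRI, of each tested chain as deposited (black, with SE), with TMM scaling (orange) and with the length trend removed (purple); grey lines separate the classes. The chains at the right are Col4a3 and Col4a4 (1.76 and 1.41 as deposited), and the lowest is Col1a1 (-2.48), with the same signs under all 3 scalings.

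Of the 7 tested fibrillar chains, 6 had changes below 0 (median -1.64), where 61.0% of all tested genes were below 0. As deposited 0 passed, and with TMM scaling 4 fell, where 1.32% of all tested genes were lower. Col1a1, which with Col1a2 makes type I collagen, the main cable of scar tissue, measured 12.05, 7.37, 5.26 and 5 FPKM in HxIRI kidneys 1 to 4, against 26.80, 34.29, 91.53 and 34.58 FPKM in IRI kidneys 5 to 8. Every HxIRI value lay under every IRI value, and IRI kidney 7 was far above the rest. The HxIRI mean was 15.9% of the IRI mean, with a log2 change of -2.48 ± 0.70 (SE, limma adjusted p = 0.0882). Its adjusted p was 0.0181 with TMM scaling, 0.0104 with the length trend removed and 0.0651 with TMM scaling without IRI library 7. These values rest on about 290 to 8948 fragments per library. The gene lies on chromosome 11 (94936224 to 94953042, plus strand).

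Col1a2 measured 6.74, 6.61, 2.34 and 2.79 FPKM in HxIRI kidneys, against 7.89, 14.52, 38.89 and 12.23 FPKM in IRI kidneys. The groups did not overlap, although IRI kidney 5 lay just above HxIRI kidneys 1 and 2. Its log2 change was -1.76 ± 0.65 (SE, limma adjusted p = 0.279, and 0.0352 with TMM scaling). The ratio of Col1a2 to Col1a1 FPKM was 0.445 to 0.897 in HxIRI kidneys and 0.294 to 0.425 in IRI kidneys, with no test, since this ratio was chosen after the values were seen.

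Col3a1, the type III chain that joins type I in fibrils of soft tissue, measured 12.86, 5.49, 3.36 and 4.54 FPKM in HxIRI kidneys. In IRI kidneys it measured 11.85, 32.50, 76.68 and 23.38 FPKM. HxIRI kidney 1 exceeded IRI kidney 5, so the groups overlapped. The log2 change of Col3a1 was -2.23 ± 0.71 (SE, limma adjusted p = 0.162, and 0.0424 with TMM scaling). Col5a1, a type V chain that starts fibrils and limits their width, measured 2.11, 1.30, 1.23 and 1.41 FPKM in HxIRI kidneys, against 3.06, 5.40, 11.66 and 5.18 FPKM in IRI kidneys. The Col5a1 groups did not overlap, with a log2 change of -1.64 ± 0.52 (SE, limma adjusted p = 0.153, and 0.0370 with TMM scaling).

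The other type V chains overlapped between the groups. Col5a2, whose gene neighbours Col3a1 on chromosome 1, ranged over 1.04 to 3.85 FPKM in HxIRI kidneys and 1.30 to 9.04 FPKM in IRI kidneys (log2 change -0.79, limma adjusted p = 0.803). Col5a3 ranged over 0.18 to 1.12 FPKM in HxIRI kidneys and 0.72 to 2.74 FPKM in IRI kidneys (log2 change -1.07, limma adjusted p = 0.399). Col27a1, a fibrillar chain best known from cartilage, was the one tested fibrillar chain with a change above 0 (0.52, limma adjusted p = 0.903), at 1.24 to 3.82 FPKM in HxIRI kidneys and 0.41 to 2.24 FPKM in IRI kidneys. The 4 fibrillar chains that were not tested, Col2a1, Col11a1, Col11a2 and Col24a1, stayed at or under 0.13 FPKM in HxIRI kidneys and at or under 0.28 FPKM in IRI kidneys.

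Within type IV the changes had both signs: 3 of 5 tested chains were above 0, where 61.0% of all tested genes were below 0. As deposited 0 passed, and with TMM scaling 1 rose, where 1.22% of all tested genes were higher. Col4a3 measured 16.45, 22.11, 17.26 and 19.96 FPKM in HxIRI kidneys, against 2.23, 9.38, 6.16 and 5.47 FPKM in IRI kidneys. All 4 HxIRI values were well above all IRI values and close to each other, and IRI kidney 5 was the lowest. The HxIRI mean was 3.26 times the IRI mean, a log2 change of 1.76 ± 0.64 (SE, limma adjusted p = 0.259). The adjusted p of Col4a3 was 0.0603 with TMM scaling, 0.0274 with the length trend removed and 0.0481 with TMM scaling without IRI library 5.

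Its partner Col4a4 measured 15.13, 21.13, 14.70 and 16.53 FPKM in HxIRI kidneys, against 3.88, 8.36, 8.06 and 4.78 FPKM in IRI kidneys. These groups were also apart, with the HxIRI mean 2.69 times the IRI mean and a log2 change of 1.41 ± 0.62 (SE, limma adjusted p = 0.448). The adjusted p of Col4a4 was 0.0453 with TMM scaling, 0.0251 with the length trend removed and 0.190 with TMM scaling without IRI library 7. The ratio of Col4a4 to Col4a3 FPKM was 0.828 to 0.956 in HxIRI kidneys and 0.874 to 1.74 in IRI kidneys.

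Col4a5, the X-linked chain of the same network, overlapped between the groups. It measured 3.17, 3.60, 3.01 and 2.98 FPKM in HxIRI kidneys, against 1.01, 3.02, 5.38 and 3.63 FPKM in IRI kidneys. The HxIRI values lay inside the IRI range, with a log2 change of 0.13 ± 0.52 (SE, limma adjusted p = 0.999) that turned to -0.26 without IRI library 5. Col4a6, which pairs with Col4a5 around smooth muscle and in Bowman's capsule, was not tested, at 0.19 to 0.47 FPKM in HxIRI kidneys and 0.10 to 1.07 FPKM in IRI kidneys.

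The widespread type IV chains had changes below 0. Col4a1 measured 20.56, 39.44, 22.55 and 19.93 FPKM in HxIRI kidneys, against 15.95, 60.59, 108.52 and 42.38 FPKM in IRI kidneys. IRI kidney 5 was below every HxIRI kidney and the other IRI kidneys were above them all, and the log2 change was -0.89 ± 0.77 (SE, limma adjusted p = 0.895). The adjusted p of Col4a1 was 0.525 with TMM scaling, and 0.0496 with TMM scaling without IRI library 5. Col4a2 measured 21.42, 28.91, 16.68 and 18.88 FPKM in HxIRI kidneys, against 51.12, 45.58, 72.38 and 36.65 FPKM in IRI kidneys. The Col4a2 groups did not overlap, with a log2 change of -1.23 ± 0.72 (SE, limma adjusted p = 0.699, and 0.145 with TMM scaling). The ratio of Col4a2 to Col4a1 was 0.733 to 1.04 in HxIRI kidneys and 0.667 to 0.865 in IRI kidneys 6 to 8, and reached 3.21 in IRI kidney 5.

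Ratios within a library do not depend on scaling between libraries. Of the summed type IV FPKM, Col4a3 and Col4a4 together made up 41.0%, 37.5%, 42.8% and 46.4% in HxIRI kidneys, against 8.22%, 13.9%, 7.05% and 11.0% in IRI kidneys. Col4a1 and Col4a2 made up 49.4% to 59.2% in HxIRI kidneys and 83.2% to 90.3% in IRI kidneys. The ratio of Col4a3 to Col4a1 was 0.8001, 0.561, 0.765 and 1.002 in HxIRI kidneys, against 0.140, 0.155, 0.0568 and 0.129 in IRI kidneys. The lowest HxIRI ratio thus exceeded the highest IRI ratio, and IRI kidney 5 was no exception. These shares and this ratio were chosen after the values were seen and carry no test.

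The ratio set for testing was that of Col1a1 to Col4a1, a fibrillar against a basement membrane chain. It was 0.586, 0.187, 0.233 and 0.251 in HxIRI kidneys, against 1.68, 0.566, 0.843 and 0.816 in IRI kidneys. Only HxIRI kidney 1 reached the IRI range, just above IRI kidney 6. On the log2 scale, with 0.5 FPKM added to both chains, the ratio averaged -1.75 ± 0.69 in HxIRI kidneys and -0.15 ± 0.64 in IRI kidneys (SD, n = 4 each). The difference of -1.59 gave p = 0.0571 in a two-sided exact permutation test, where the smallest p this design allows is 0.0286. With HxIRI libraries averaged in pairs, the exact permutation p was 0.133, the smallest that 2 values against 4 allow.

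**Figure D3:**
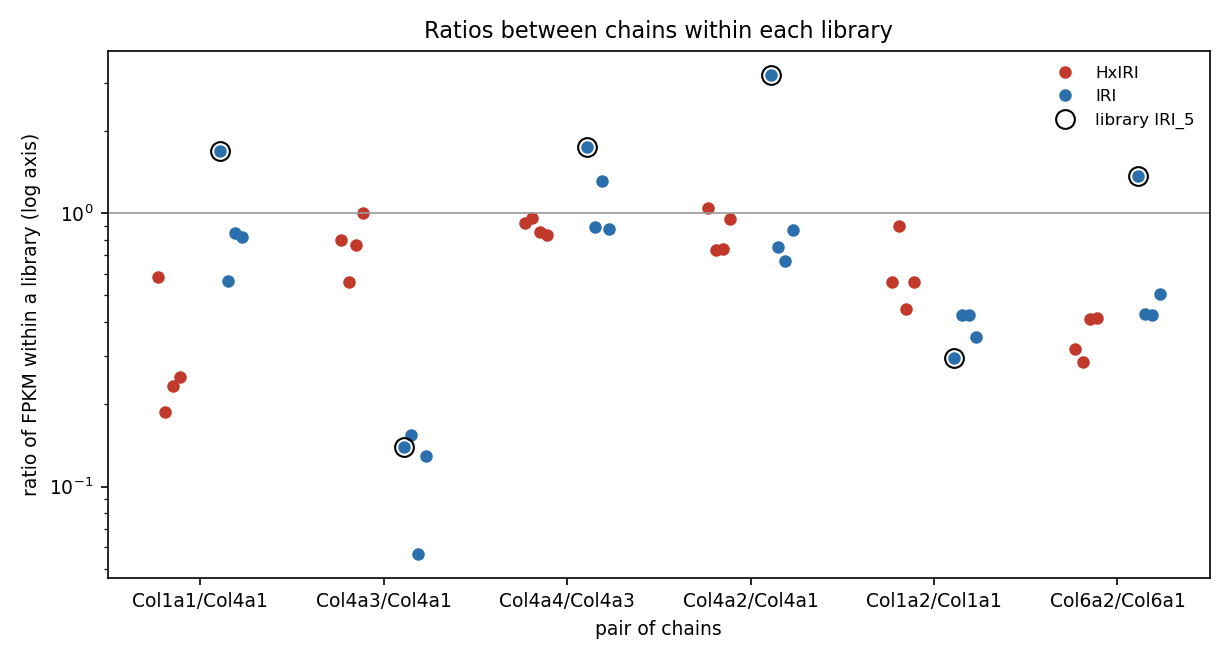
Ratios of FPKM between pairs of chains within each library (log axis), HxIRI in red left of IRI in blue, with IRI library 5 ringed. For Col4a3/Col4a1 all HxIRI values (0.561 to 1.002) lie above all IRI values (0.0568 to 0.155), while IRI library 5 stands apart for Col4a2/Col4a1 at 3.21 and Col6a2/Col6a1 at 1.37.

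Type VI chains are obligate partners in one filament. The 3 tested ones had changes below 0 (median -1.71), where 61.0% of all tested genes were below 0. As deposited 0 passed, and with TMM scaling 1 fell, where 1.32% of all tested genes were lower. Col6a1 measured 6.04, 7.91, 3.33 and 3.59 FPKM in HxIRI kidneys, against 21.56, 12.93, 31.06 and 8.07 FPKM in IRI kidneys. The groups lay apart by the gap between HxIRI kidney 2 and IRI kidney 8, with a log2 change of -1.63 ± 0.64 (SE, limma adjusted p = 0.331, and 0.0437 with TMM scaling). Col6a2 measured 1.92, 2.26, 1.37 and 1.48 FPKM in HxIRI kidneys, against 29.46, 5.52, 13.15 and 4.09 FPKM in IRI kidneys. Its groups did not overlap, and its log2 change was -2.21 ± 0.60 (SE), with the smallest p of all chains (limma adjusted p = 0.0780). Leaving out 1 library, the adjusted p of Col6a2 in limma was 0.0370 without IRI library 6, 0.0191 without IRI library 8 and 0.105 to 0.295 without any other, the highest without IRI library 7. Without IRI library 5, its highest value, the log2 change was -1.70 (adjusted p = 0.125), and with TMM scaling the adjusted p was 0.0796.

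Col6a3, the longest of these chains, measured 2.40, 0.78, 0.85 and 1.46 FPKM in HxIRI kidneys, against 2.12, 5.37, 11.05 and 5.82 FPKM in IRI kidneys. HxIRI kidney 1 lay above IRI kidney 5, and the log2 change was -1.71 ± 0.53 (SE, limma adjusted p = 0.145, and 0.0307 with the length trend removed). The ratio of Col6a2 to Col6a1 was 0.286 to 0.412 in HxIRI kidneys and 0.423 to 0.507 in IRI kidneys 6 to 8, and 1.37 in IRI kidney 5. Col6a4, Col6a5 and Col6a6 were not tested and stayed at or under 0.37 FPKM in HxIRI kidneys and 0.22 FPKM in IRI kidneys.

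Both multiplexins had changes below 0. Col15a1, at basement membranes of vessels and muscle, measured 6.34, 1.53, 2.76 and 2.90 FPKM in HxIRI kidneys, against 2.67, 13.26, 22.97 and 7.59 FPKM in IRI kidneys. Only IRI kidney 5 lay within the HxIRI range, and the log2 change was -1.44 ± 0.64 (SE, limma adjusted p = 0.463). The adjusted p of Col15a1 was 0.293 with TMM scaling, and 0.0499 with TMM scaling without IRI library 5. Col18a1, whose end fragment is endostatin, measured 21.94, 23.01, 12.31 and 12.82 FPKM in HxIRI kidneys, against 28.59, 29.57, 64.68 and 27.27 FPKM in IRI kidneys. The Col18a1 groups did not overlap, with a log2 change of -1.03 ± 0.71 (SE, limma adjusted p = 0.802).

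Among the FACIT chains, Col12a1 had the smallest p. It measured 0.37, 0.31, 0.50 and 0.45 FPKM in HxIRI kidneys, against 0.24, 1.34, 2.34 and 1.90 FPKM in IRI kidneys. IRI kidney 5 lay below the HxIRI kidneys and the other IRI kidneys above them, with a log2 change of -0.95 ± 0.44 (SE, limma adjusted p = 0.491). Col14a1 (2.05 to 2.96 FPKM in HxIRI kidneys, 2.51 to 11.29 FPKM in IRI kidneys) and Col16a1 (0.74 to 2.22 FPKM in HxIRI kidneys, 1.22 to 4.74 FPKM in IRI kidneys) overlapped between the groups. Col8a1, a short-chain network collagen of vessel walls, measured 0.50, 1, 0.49 and 0.48 FPKM in HxIRI kidneys, against 0.30, 1.08, 2.58 and 1.91 FPKM in IRI kidneys. Its log2 change was -0.67 ± 0.45 (SE, limma adjusted p = 0.781), and IRI kidney 5 again had the lowest value.

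The chains that were not tested were measured on few fragments. Col9a1 and Col19a1 were listed at 0 in all 8 libraries, which is no evidence of absence at this depth. The untested chain that reached the highest value in a single library was Col13a1, a transmembrane collagen, with 0.17, 1.89, 0.10 and 0.07 FPKM in HxIRI kidneys and 0, 0.02, 0.35 and 0.18 FPKM in IRI kidneys. That mean rested on HxIRI kidney 2. With no filter on low values, 42 chains had a log2 change, of which 34 were below 0 with a median of -0.21, against 58.3% of all genes with a median of -0.04.

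The makeup of the collagen transcripts is given as shares of their summed FPKM, with no test. Chains summed to 161, 189, 116 and 123 FPKM in HxIRI kidneys, against 219, 299, 603 and 238 FPKM in IRI kidneys. Fibrillar chains took 23.7%, 15.4%, 13.1% and 13.4% of this sum in HxIRI kidneys, against 24.7%, 31.0%, 38.7% and 33.7% in IRI kidneys. HxIRI kidney 1 was close to IRI kidney 5 in this share, and the other libraries were further apart. Type IV took 47.8%, 61.0%, 64.2% and 64.0% in HxIRI kidneys, against 33.9%, 42.7%, 33.5% and 39.3% in IRI kidneys, without overlap. Type VI took 4.8% to 6.67% in HxIRI kidneys and 7.55% to 9.22% in IRI kidneys 6 to 8, with 24.3% in IRI kidney 5. The multiplexins took 12.8% to 17.5% in HxIRI kidneys and 14.3% to 14.6% in IRI kidneys.

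**Figure D4:**
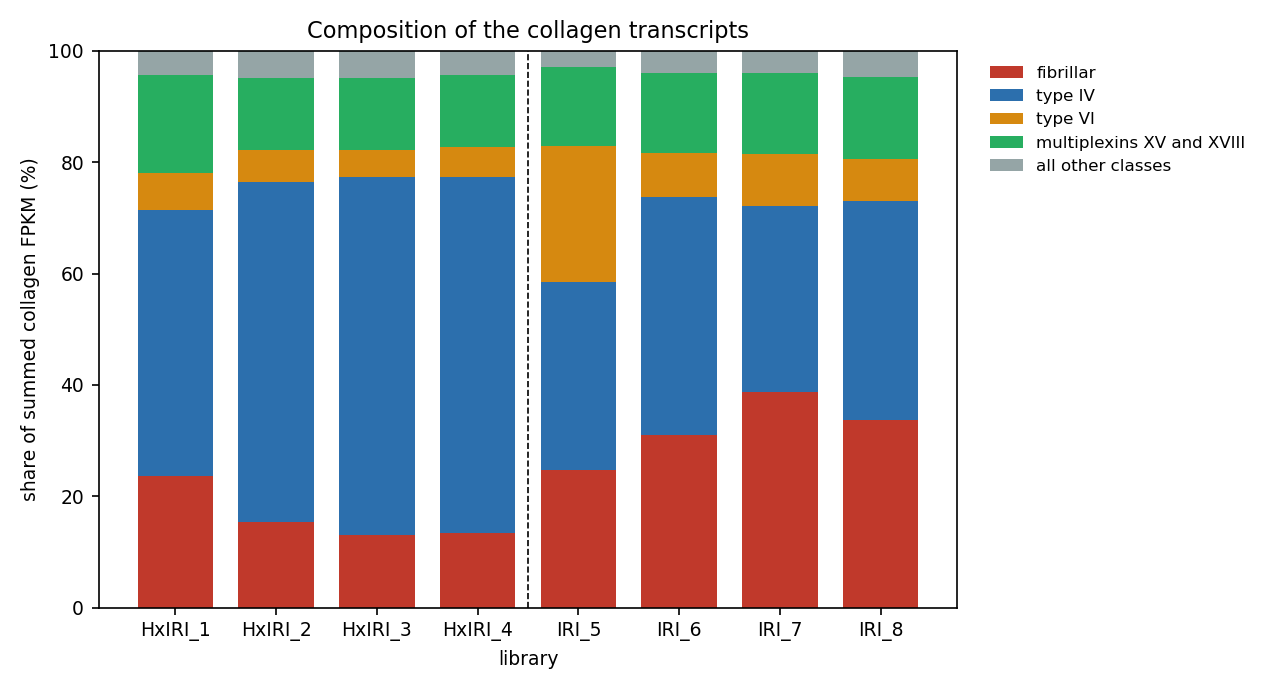
Share of the summed collagen FPKM (%) taken by each class in each library, HxIRI libraries left of the dashed line and IRI libraries right of it. The type IV share is 47.8% to 64.2% in HxIRI libraries and 33.5% to 42.7% in IRI libraries, and type VI reaches 24.3% in IRI library 5.

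Genes that make, process, sense and break down collagen were counted by the same test. Each count as deposited is to be read against 0.305% of all tested genes higher and 0.602% lower. With TMM scaling these shares were 1.22% and 1.32%, so a count of 0 in a short list is near them. Of the tested genes for folding and modification, 0 of 19 passed as deposited, with a median log2 change of -0.41. Those with the smallest p were Fkbp10, a prolyl isomerase for new chains (log2 change -1.37, limma adjusted p = 0.293, and 0.0391 with the length trend removed), and P3h3, of the prolyl 3-hydroxylase family (-1.12, adjusted p = 0.485). Of the genes for procollagen trimming and crosslinking, 0 of 9 passed, with a median of -1.19. Among them were Bmp1, which cuts off the C-terminal propeptide (-1.50, limma adjusted p = 0.187), and Loxl3, a lysyl oxidase (-1.36, adjusted p = 0.188). With TMM scaling Loxl3 and Adamts2, which trims the N-terminal propeptide, fell (limma adjusted p = 0.0435 and 0.0292), where 1.32% of all tested genes were lower. Loxl3 entered the test through the IRI group, as did 7 other tested genes of the lists, among them Fbln2, Tgfb3 and Itgam. Of the receptors 0 of 6 passed, with a median of -0.42, Mrc2, a receptor for collagen uptake, at -1.37 (limma adjusted p = 0.348) and the integrin Itgb1 at -0.73 (adjusted p = 0.937).

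Of the genes of collagen breakdown 1 of 7 passed, and it fell (median of the list -1.15), where 0.602% of all tested genes were lower. Timp1, which inhibits metalloproteinases, measured 8.79, 2.48, 0.27 and 0.34 FPKM in HxIRI kidneys, against 220.54, 17.01, 42.39 and 7.17 FPKM in IRI kidneys. HxIRI kidney 1 exceeded IRI kidney 8, and IRI kidney 5 was far above the rest. The log2 change was -4.03 ± 0.88 (SE, limma adjusted p = 0.0252), and the adjusted p was 0.125 without IRI library 5 (log2 change -3.12), 0.222 without IRI library 7 and 0.0739 with TMM scaling. The log2 change of Timp1 was -4.75 without HxIRI library 1 and -4.74 without IRI library 8. Mmp14, a collagenase anchored in the cell membrane, fell with TMM scaling (log2 change -1.45, limma adjusted p = 0.0263), where 1.32% of all tested genes were lower. Of the reported genes of TGF-beta signalling, a pathway that switches on fibrillar collagen genes, 0 of 9 passed as deposited or with TMM scaling (median of the list -0.61). The ligand gene Tgfb1 measured 2.70, 2.32, 1.52 and 1.09 FPKM in HxIRI kidneys, against 32.87, 5.43, 12.02 and 3.56 FPKM in IRI kidneys. These groups did not overlap, and the log2 change was -2.11 ± 0.62 (SE, limma adjusted p = 0.112, and 0.117 with TMM scaling). Tgfb3, another ligand gene, was at -0.92 (adjusted p = 0.479). With no filter on low values Timp1 did not pass (limma adjusted p = 0.487), and neither did any other of 30982 genes.

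Markers of the cells that make these chains were read beside them. As deposited, 0.305% of all tested genes were higher and 0.602% lower, so a count of 0 in a marker list is near these shares. In whole kidney, fewer cells of a type and less RNA per cell cannot be told apart. Of fibroblast markers 0 of 11 passed (median log2 change -0.55), with summed levels of 10.7 to 35.0 FPKM in HxIRI kidneys and 13.9 to 54.1 FPKM in IRI kidneys. Mfap5 and Clec3b were at 0 in at least 1 library. Mfap4 (log2 change -1.43, limma adjusted p = 0.193) and Fbln2 (-1.01, adjusted p = 0.359) had the smallest p. Mfap4 fell with TMM scaling (adjusted p = 0.0435) and with the length trend removed (0.0411). Fbln2 averaged 0.218 FPKM in HxIRI kidneys and 1.05 FPKM in IRI kidneys. Of pericyte and smooth muscle markers 0 of 10 passed (median -0.69), with summed levels of 32.8 to 64.5 FPKM in HxIRI kidneys and 72.3 to 244.8 FPKM in IRI kidneys. Acta2, the smooth muscle actin that activated fibroblasts also make, was at -2.07 (limma adjusted p = 0.239, and 0.0437 with TMM scaling), and Tagln at -1.72 (adjusted p = 0.417).

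For podocytes, the cells that make the chains of Col4a3 and Col4a4 in the glomerulus, 0 of 10 markers passed as deposited or with TMM scaling. Of all tested genes 0.305% were higher and 0.602% lower as deposited, and 1.22% and 1.32% with TMM scaling. A count of 0 of 10 is near these shares and does not show that the markers were unchanged. Changes were below 0 in 6 of them and above 0 in 4, where 61.0% of all tested genes were below 0. The median log2 change was -0.08 as deposited and 0.097 with TMM scaling. The summed levels were 33.3 to 59.9 FPKM in HxIRI kidneys and 30.2 to 78.6 FPKM in IRI kidneys. Synpo (-0.89, limma adjusted p = 0.666) and Clic3 (-1.12, adjusted p = 0.678) had the smallest p, and Clic3 was at -0.31 without IRI library 5. Of 10 tubule markers 8 had changes above 0, with a median of 1.21, where 61.0% of all tested genes were below 0. As deposited 0.305% of all tested genes were higher, and 1 tubule marker passed. It was the distal tubule gene Calb1, with 36.95, 34.21, 15.55 and 17.32 FPKM in HxIRI kidneys, against 4.14, 1.57, 4.53 and 0.92 FPKM in IRI kidneys. Calb1 rose by a log2 change of 3.10 ± 0.64 (SE, limma adjusted p = 0.0198). The adjusted p of Calb1 was 0.0630 without IRI library 7 and 0.133 with HxIRI libraries averaged in pairs. It was 0.269 with no filter, a setting in which 0 of 30982 genes passed. With TMM scaling 3 tubule markers rose, where 1.22% of all tested genes were higher. Summed tubule markers were 836 to 2639 FPKM in HxIRI kidneys and 287 to 991 FPKM in IRI kidneys. The part of tubule cells in the level of Col4a3 and Col4a4 was not tested.

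Of endothelial markers 0 of 10 passed (median 0.44), where 0.305% of all tested genes were higher and 0.602% lower as deposited. Their summed levels were 43.0 to 108.0 FPKM in HxIRI kidneys and 31.1 to 101.9 FPKM in IRI kidneys. Flt1 (0.64, limma adjusted p = 0.820) and Kdr (0.57, adjusted p = 0.884) had the smallest p. Of macrophage markers 0 of 10 passed as deposited (median -1.90), with Cd68 at -2.56 (limma adjusted p = 0.0600) and Itgam at -1.72 (adjusted p = 0.0882), and with TMM scaling 3 fell, where 1.32% of all tested genes were lower. Their summed levels were 22.5 to 113.7 FPKM in HxIRI kidneys and 134.2 to 837.4 FPKM in IRI kidneys, without overlap. The part of fibroblasts, pericytes and macrophages in the lower fibrillar and type VI levels was not tested.

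**Figure D5:**
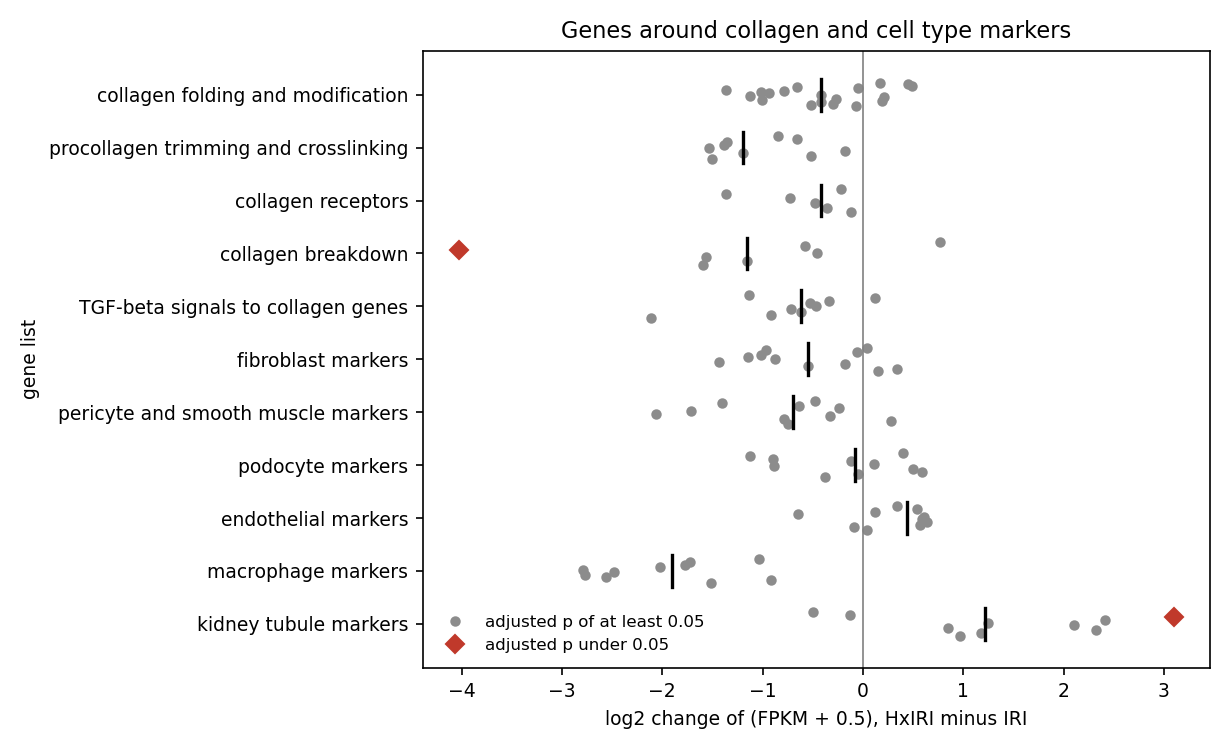
Log2 change of (FPKM + 0.5), HxIRI minus IRI, of each tested gene of the lists around collagen and of cell type markers, with a black bar at the list's median and red diamonds where the limma adjusted p was under 0.05. The passing genes are Timp1 (-4.03) and Calb1 (3.10), and the macrophage markers have the lowest median, -1.90.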

How the data were processed

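Per the labels' protocols, poly(A) RNA of flash-frozen kidneys, extracted with Trizol, was sequenced as stranded TruSeq libraries. The submitters' processing notes name HISAT2, StringTie and edgeR, with neither version nor role. The build and annotation used for the table are not given in these sources. The deposited table gives, per the file headers, FPKM per gene and library. No scaling between libraries is recorded. Without read counts, depth is an approximation with no interval. All 34450 identifiers matched GENCODE M21, which supplied symbols, coordinates and exon lengths; promoter windows were from RefSeq.

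Genes with a mean of at least 0.5 FPKM were tested as log2(FPKM + 0.5) with limma (version 3.58.1, R 4.3.3; two-sided, lmFit and eBayes with a variance trend), with Benjamini-Hochberg adjustment over 14444 genes. The step was first tested on simulated data, drawn as independent libraries. Of 100 genes changed by a log2 of 2 it called 42, and of 100 changed by 3 it called 73. Of its 123 calls 8 were false. TMM factors were computed from the published formula (trimming 30% of ratios and 5% of levels) and used for scaling only. The length trend was a loess curve (span 0.5) per library. Ratios were tested by exact permutation over libraries, with scipy 1.17.1.

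One gene of the TGF-beta list is not reported here. The members and the gene lists were chosen with earlier results of these data known. All 8 values are given for 13 chains set by name, for any chain that passed and for the chain with the smallest p in each class. From the other lists the passing genes, or the 2 with the smallest p, are named; Adamts2, Mmp14 and Col5a1 were added because they passed after scaling, and Col13a1 after its values were seen.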

Additional observations from a re-analysis of the deposited data

Results flagged for a closer look

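In 7 of 84 groups of 4 libraries examined, 1 library lay far from the other 3 by Dixon's criterion, which chance alone meets in about 1 group in 20. Among the HxIRI kidneys, number 2 had 39.44 FPKM of Col4a1 (others 19.93 to 22.55 FPKM), 3.82 FPKM of Col27a1 (others 1.24 to 1.49 FPKM) and 1 FPKM of Col8a1 (others 0.48 to 0.50 FPKM). Among the IRI kidneys, number 7 had 91.53 FPKM of Col1a1, against 26.80 to 34.58 FPKM in the others, and 64.68 FPKM of Col18a1, against 27.27 to 29.57 FPKM. IRI kidney 5 had 220.54 FPKM of Timp1 (others 7.17 to 42.39 FPKM) and 26.63 FPKM of the podocyte marker Clic3 (others 1.37 to 4.42 FPKM). The largest summed collagen FPKM was 189 among HxIRI kidneys, in number 2, and 603 among IRI kidneys, in number 7.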

How the results depend on the processing

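No paired analysis was possible because the groups share no replicate numbers (1 to 4 and 5 to 8). Changing 1 or 2 choices at a time, the chains called lower (0 as deposited) numbered 1 with a filter of 2 FPKM (where 0.933% of all tested genes were lower), 5 with TMM scaling (1.32%), 5 with quantile normalization (2.42%), 1 with a common sum over protein-coding genes (0.976%), 6 with the length trend removed (1.74%), 15 with library weights, whose estimate did not fully converge (8.98%), 2 at an adjusted p under 0.10 (1.39%), 11 with TMM scaling without IRI library 5 (5.29%) and 13 with the length trend removed without it (6.03%). The chains called higher numbered 1 with TMM scaling (1.22% of all tested genes), and 2 each with the length trend removed (1.38%), with TMM scaling without IRI library 5 (5.77%) and with the length trend removed without it (4.97%); in either direction the totals were 1, 6, 5, 1, 8, 15, 2, 13 and 15 in the order first given. Leaving out 1 library gave 0 to 1 lower, 0 higher and 0 to 1 in either direction. In these settings 0.0284% to 1.63% of all tested genes were lower and 0.0782% to 0.46% were higher. The count of list genes passing in either direction was 2 of 111 as deposited, to be read against the same shares of all genes. It was 0 with no filter, where 0 of all 30982 genes passed. It was 11 with TMM scaling, 25 with quantile normalization, 12 with the common sum and 16 with the length trend removed. Without a variance trend it was 1 (0.118% of all tested genes higher and 0.0554% lower). It was 34 with library weights and 4 at an adjusted p under 0.10. Without IRI library 5 it was 33 with TMM scaling and 36 with the length trend removed. With TMM scaling without IRI library 7 it was 1 (0.064% higher and 0.0355% lower). With HxIRI libraries averaged in pairs it was 1 (0.152% and 0.0346%). It was 0 when TMM scaling came before that averaging (0.00692% and 0%), and 0 to 7 leaving out 1 library. The change of Col4a5 turned to -0.26 without IRI library 5, where leaving out 1 library gave -0.26 to 0.40, and to -0.045 with the length trend also removed. Over all tested genes, 44 were higher and 87 lower as deposited, 360 and 1297 with library weights, and 11 and 4 without IRI library 7. Across 25 settings, 451 of 521 values for single chains kept their direction and their side of the threshold, 68 passed and 2 turned sign. The Col1a1 to Col4a1 difference ranged from -1.93 to -1.30 leaving out 1 library (exact permutation p = 0.0571 to 0.114, where 3 against 4 cannot go below 0.0571). Timp1 also did not pass without a variance trend (limma adjusted p = 0.114), with robust variance (0.0806) or with the length trend removed (0.0507). The causes were not tested. The settings that paired the length trend or TMM scaling with fewer or averaged libraries, other than TMM scaling without IRI library 5, were chosen after seeing the data.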
